A study of Macaca mulatta with 24 samples.

Results

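The JAK kinases and STAT factors are the relay through which most cytokine receptors reach the nucleus. A cytokine brings receptor chains together, the JAK kinases bound to their tails phosphorylate each other and the receptor, and STAT factors dock there, are phosphorylated, pair up and move to the nucleus to bind DNA. In blood this relay carries interferon signals (JAK1, TYK2, STAT2), signals of IL6-type cytokines and G-CSF (STAT3), of IL12 (STAT4), of erythropoietin, thrombopoietin, GM-CSF and IL2 (JAK2, JAK3, STAT5A, STAT5B) and of IL4 (STAT6). The arrays measure the RNA of these genes, not phosphorylation.

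The genes described here are STAT2, STAT3, STAT4, STAT5A, STAT5B, STAT6, JAK1, JAK2 and JAK3, and their probes were chosen by the gene name given in the scanner output. Of 43603 non-control probes, 20 carried 1 of these names, and all 20 were among the 27138 probes tested. They stood for 8 of the 9 genes, since no probe carried the name STAT5B. STAT5A and STAT5B are neighbouring paralogs with very similar coding sequences, and whether the STAT5A probes also bind STAT5B RNA was not tested.

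Whole blood of adult rhesus macaques was hybridized in 1 colour to 24 arrays of rhesus probes. There were 7 pre-irradiation arrays, and total body exposure to 4 Gy was followed by 4 arrays of day 3, 6 of day 5 and 7 of day 7. The same 7 animals (4 male, 3 female) gave the arrays, and the sham animals of the study were not analysed here. The labels name X-rays and day 0 for the first sample, and the study's methods name cobalt gamma rays and blood drawn before the exposure. RNA came from all cells of the blood, depleted of globin transcripts. In such bulk samples, fewer or more cells of a type and less or more RNA per cell cannot be told apart.

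The arrays were scanned in 2 sessions, and this bears on every comparison with the pre-irradiation arrays. Session 1 held 6 pre-irradiation and 6 day 7 arrays, and session 2 held 1 pre-irradiation array (animal 5), all 4 arrays of day 3, all 6 of day 5 and 1 of day 7. At days 3 and 5, a comparison of that day with the pre-irradiation arrays can separate session and irradiation only through that single array. Animal 5 gave no array of day 3 or day 5. A fit with animals as blocks therefore takes nothing from its array at those days, and cannot separate session and irradiation there. Between 48.3 and 61.2% of probes were well above background on each array. Precision is set by how many arrays a group has. Levels below are log2 of the processed signal after each array was set to the median array, changes are differences of such levels, and a probe is called changed at an adjusted p under 0.005 (limma, Benjamini-Hochberg over all probes tested). Each gene stands by its brightest probe, that of the highest mean level over the 24 arrays, and levels of different probes are not compared with each other. Where arrays of a day are said to lie above every pre-irradiation array, the share of all probes that did so was not counted.

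The sequences of the probes decide what each value can say, so those the results turn on are shown first, with positions in the rheMac2 build as the scanner output gives them. Every member probe has 60 bases. A pair of the STAT2 probes, A_01_P1703781 and A_01_P1758636, carry sequence that recurs on the array. They shared a run of at least 20 bases, on either strand, with 57 and 34 other probes. On the whole array 286 of 43603 probes (0.656%) shared such a run with at least 30 others. The remaining 18 member probes, including the third STAT2 probe, A_01_P002053 (chr11:53421171-53421230, minus strand), shared none. The pair overlap by 57 bases by their coordinates, of which 54 are identical.

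For STAT3 and STAT6 the brightest probes lie in sequence with a stop in every forward reading frame and hold AATAAA, the signal for the cutting and polyadenylation of an mRNA, here in capitals within 30 bases.
STAT3 A_01_P1774671 (chr16:52425583-52425642, minus strand): ttaacttccagaAATAAAcgttatatagga
STAT6 A_01_P019844 (chr11:54159778-54159837, minus strand): ggtcatagatcctaagccataaAATAAAtt

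On the sense strand, the only one searched, AATAAA stood in 3 of the 20 member probes and in 8.12% of all probes. The third was JAK1 A_01_P1695156, which reads through in 1 frame. A frame with no stop was present in 15 of 20 member probes and in 84.1% of all probes.

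The 3 JAK3 probes are given whole. Their changes differed mainly through A_01_P1673391, a faint probe that entered the tests only through days 5 and 7. None of the 3 shared a run of 20 bases with another probe.
JAK3 A_01_P1695161 (chr19:17405137-17405395, minus strand, across a splice junction): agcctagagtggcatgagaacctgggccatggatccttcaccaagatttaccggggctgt
JAK3 A_01_P1703956 (chr19:17397539-17397598, minus strand): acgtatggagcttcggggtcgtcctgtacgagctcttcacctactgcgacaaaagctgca
JAK3 A_01_P1673391 (chr19:17399529-17399588, minus strand): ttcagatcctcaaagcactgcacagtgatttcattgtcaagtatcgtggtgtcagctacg

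STAT5A was measured by 3 probes, of which 1 that was called at days 3 and 5 is shown.
STAT5A A_01_P1695186 (chr16:52416657-52417677, plus strand, across a splice junction): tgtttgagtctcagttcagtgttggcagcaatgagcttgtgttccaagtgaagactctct

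After irradiation the called changes of these genes were all rises. By their brightest probes, STAT3, STAT6 and JAK2 rose at day 3, STAT3, STAT5A and STAT6 rose at day 5, and JAK1 rose at day 7. When animals entered the fit as blocks, only STAT6 at day 5 stayed under the threshold (adjusted p = 0.0031), and the others had adjusted p from 0.0082 to 0.029. At days 3 and 5 that fit cannot separate irradiation from scan session. By brightest probe the called rises were between 1.63- and 2.14-fold. No member probe was called lower on any day. Without blocks, STAT4 was not called by any of its 3 probes, nor was STAT2. With animals as blocks, STAT2 probe A_01_P002053 was called at days 5 and 7, as given below.

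Counted over genes, 3 of 8 were called higher at day 3, where 5.74% of all 11342 genes tested were called higher by their brightest probe and 7.74% lower. Day 5 had 3 of 8 called higher against 6.14% of genes higher and 9.30% lower. Day 7 had 1 of 8, against 2.66% higher and 7.33% lower. Counted over probes, 6, 9 and 2 of 20 were called higher at days 3, 5 and 7, beside 5.44%, 7.16% and 3.60% of all probes called higher and 8.02%, 9.58% and 7.27% called lower. Each of these member counts includes JAK3 A_01_P1673391, which passed the filter on dim probes only through days 5 and 7 and was below background on all arrays of day 3. The median change of the 8 genes was 0.94, 0.75 and 0.29 on the log2 scale on these days, and that of all genes was -0.01, -0.01 and -0.02.

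**Figure D1:**
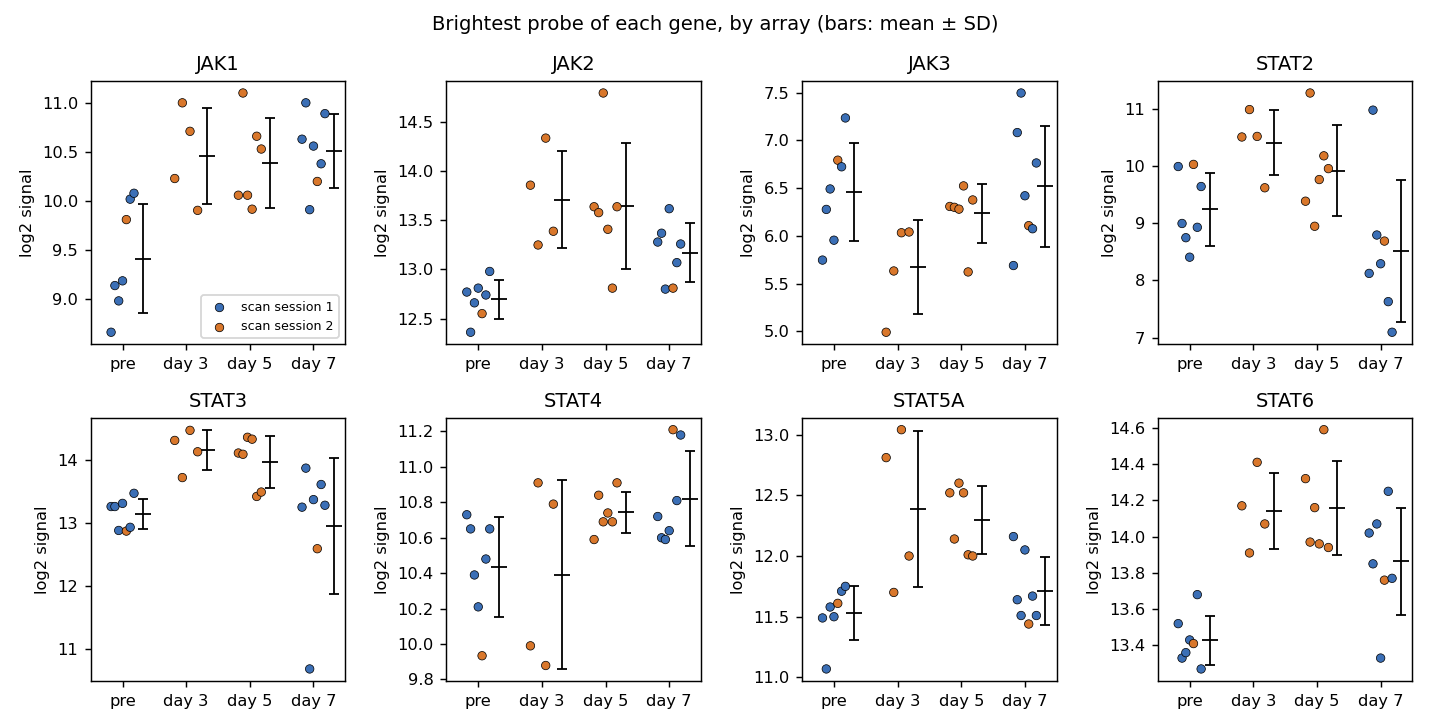
Level (log2 signal, y axis, a scale of its own in each panel) of the brightest probe of each gene on every array, by day (x axis), coloured by scan session, with the mean and SD of each group as bars. STAT3, STAT6 and JAK2 sit above all 7 pre-irradiation arrays on the 4 arrays of day 3, while JAK3 and STAT4 overlap with them on every day. The share of all probes that separate in this way was not counted.

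STAT3, the factor of IL6-type cytokines and G-CSF, was called higher at days 3 and 5 and not at day 7. Its brightest probe ran from 12.87 over a median of 13.26 to 13.47 before irradiation. At day 3 it read 14.31, 13.72, 14.47 and 14.13 in animals 1, 2, 4 and 7, and at day 5 it ran from 13.42 over 14.10 to 14.36. All 4 arrays of day 3 and 5 of 6 of day 5 lay above every pre-irradiation array.

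The change of STAT3 at day 3 was 1.02 ± 0.19 (SE; adjusted p = 0.0021), a rise of 2.03-fold, and at day 5 0.83 ± 0.19 (adjusted p = 0.0042). At day 7 the change was -0.19 with a 95% interval from -1.01 to 0.63. The day 7 arrays ran from 10.68 over 13.28 to 13.87, and the lowest of them, animal 3, stood far from the rest. The negative sign of the day 7 change rests on that array of animal 3. The median of day 7, 13.28, did not lie below the pre-irradiation median of 13.26. On that array the other STAT3 probes read 12.09 and 8.59, the first just below and the second within the ranges of the other day 7 arrays (12.18 to 12.99 and 8.27 to 9.08). At day 5 all 3 STAT3 probes were called, with changes of 0.83, 0.87 and 1.12, and the probe across a splice junction (A_01_P1695176) ranged from 9.04 to 9.51 against 7.70 to 8.65 before. At day 3 these other STAT3 probes had changes of 0.81 and 0.88 with adjusted p = 0.064 and 0.029.

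STAT6, the factor of IL4 and IL13, has 1 probe. Before irradiation it ran from 13.27 over 13.41 to 13.68. At day 3 it read 14.17, 13.91, 14.41 and 14.07 in animals 1, 2, 4 and 7, and at day 5 it ran from 13.94 over 14.07 to 14.59. Every array of both days lay above every pre-irradiation array, and so did 6 of 7 at day 7, which ran from 13.33 over 13.85 to 14.25. The change was 0.71 ± 0.15 at day 3 (adjusted p = 0.0037), 0.73 ± 0.14 at day 5 (adjusted p = 0.0013) and 0.44 ± 0.15 at day 7 (adjusted p = 0.042, not called). These correspond to 1.63-, 1.66- and 1.35-fold.

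STAT5A, which with STAT5B serves erythropoietin, thrombopoietin, GM-CSF and IL2, was higher at day 5 in all 3 probes. Its brightest probe (A_01_P000763, chr16:52423484-52423543, plus strand) ran from 11.07 over 11.58 to 11.75 before irradiation and from 12 over 12.33 to 12.60 at day 5, without overlap. The change at day 5 was 0.77 ± 0.16 (adjusted p = 0.0020). At day 3 it read 12.81, 11.70, 13.04 and 12 in animals 1, 2, 4 and 7, 3 of them above every pre-irradiation array, and the change of 0.86 ± 0.25 was not called (adjusted p = 0.021).

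The other STAT5A probes had larger changes. A_01_P1823791 changed by 1.28 at day 3 (adjusted p = 0.0087), by 1.57 ± 0.23 at day 5 (adjusted p = 0.00018) and by 0.88 at day 7 (adjusted p = 0.013). A_01_P1695186 changed by 1.16 ± 0.24 at day 3 (adjusted p = 0.0038) and by 1.14 ± 0.22 at day 5 (adjusted p = 0.0016). At day 7 A_01_P1695186 still read 0.91 ± 0.22 above its first level (adjusted p = 0.0063, not called), higher than the same animal's pre-irradiation value in 7 of 7 animals. The brightest probe was by then 0.18 above, with an interval from -0.15 to 0.52.

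JAK2, the kinase of the erythropoietin, thrombopoietin and GM-CSF receptors, has 1 probe. Before irradiation it ran from 12.36 over 12.74 to 12.98, and at day 3 it read 13.86, 13.25, 14.34 and 13.39 in animals 1, 2, 4 and 7. The rise of 1.02 ± 0.21 (2.03-fold) was called (adjusted p = 0.0038). At day 5 it ran from 12.81 over 13.61 to 14.80 and the change of 0.95 ± 0.25 was not called (adjusted p = 0.0087). At day 7 it was above the animal's own first value in 7 of 7 animals, by 0.15 to 1.01, with a mean change of 0.48 ± 0.16 (adjusted p = 0.036, not called).

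JAK1, shared by interferon, gp130 and common gamma chain receptors, was the 1 gene called at day 7. Its brightest probe (A_01_P1694396) ran from 8.67 over 9.19 to 10.08 before irradiation and from 9.91 over 10.56 to 11 at day 7, higher than the own first value in 7 of 7 animals. The change at day 7 was 1.10 ± 0.25 (2.14-fold, adjusted p = 0.0046). Its changes at days 3 and 5 were of similar size, 1.05 ± 0.31 and 0.98 ± 0.27, with adjusted p = 0.022 and 0.013. Within scan session 2 they were 0.65 and 0.58.

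The JAK1 probes were not called on the same days. A_01_P011107 (chr1:67607262-67607321, minus strand) was called at day 3 (change 1.27 ± 0.24, adjusted p = 0.0023) and day 5 (1.13 ± 0.20, adjusted p = 0.00087), where it lay above every pre-irradiation array on all 4 and all 6 arrays, and had a change of 0.52 at day 7 (adjusted p = 0.14). The only pre-irradiation array of scan session 2, animal 5, read 9.79 on it, the highest before irradiation. Against that array its changes at days 3 and 5 were smaller, as given below. The dim A_01_P1695156, well above background on 4 of 7 pre-irradiation arrays, had changes of 0.41, 0.31 and 0.66 and was never called.

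JAK3, the kinase of the common gamma chain used by IL2, IL7 and IL15, gave no single direction. Its brightest probe (A_01_P1695161) ran from 5.75 over 6.49 to 7.23 before irradiation and read 4.99, 5.63, 6.03 and 6.04 in animals 1, 2, 4 and 7 at day 3. Its change at day 3 was -0.78 ± 0.30 (adjusted p = 0.059), at day 5 -0.22 ± 0.24 and at day 7 0.06 ± 0.29, none called.

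A_01_P1673391 was a faint probe. It was not well above background on any of the 7 pre-irradiation or 4 day 3 arrays, and was on 4 of 6 at day 5 and 5 of 7 at day 7. All arrays of every day lay above all pre-irradiation arrays, whose highest level was 4.04 against lowest levels of 4.46, 4.59 and 4.81 at days 3, 5 and 7. It entered the tests only through days 5 and 7, where it was bright enough, so its calls on the 3 days are not used as support. No fold is given for day 3, where neither group was above background. The level was 2.41-fold higher at day 5 and 2.73-fold higher at day 7. For this, lower pre-irradiation levels were raised to the lowest signal well above background on their array. These are no lower bounds, since A_01_P1703956 read 5.30 on a pre-irradiation array without being well above background. The third JAK3 probe, A_01_P1703956, well above background on 4 of 7 pre-irradiation arrays, had changes of -0.40, 0.23 and 0.51 and was not called.

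**Figure D2:**
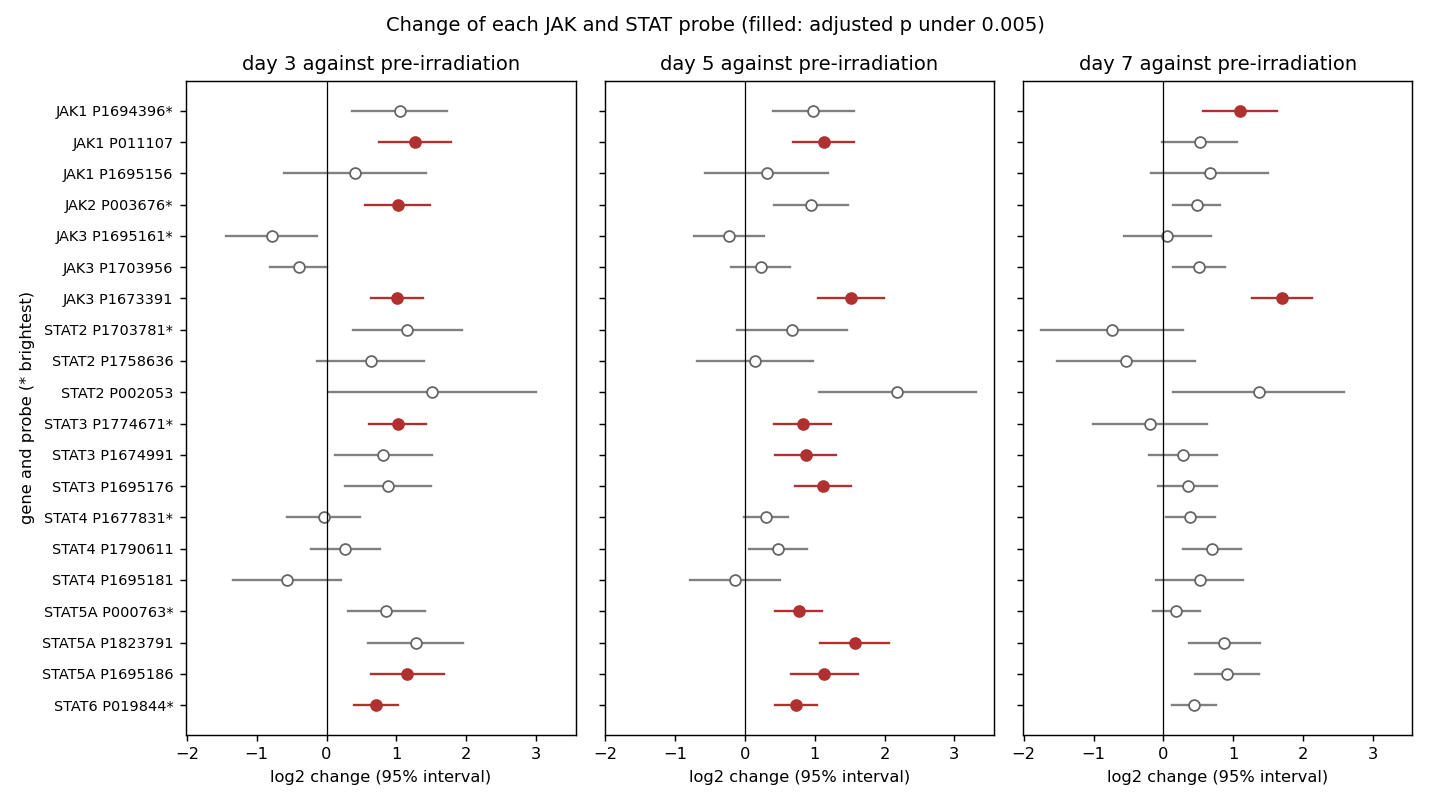
Change of all 20 probes against the pre-irradiation arrays (x axis, log2, with the 95% interval of the limma fit), by gene and probe (y axis) at days 3, 5 and 7, with filled points for adjusted p under 0.005. The 6, 9 and 2 called probes all lie right of 0, and probes of both signs are seen for JAK3 and STAT4 at days 3 and 5 and for STAT2 and STAT3 at day 7. The STAT3 point left of 0 at day 7 rests on the low array of animal 3. The filled JAK3 point of day 3 compares groups that were both below background, and those of days 5 and 7 compare with a group below background.

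STAT4, the IL12 factor of T and NK cells, was not called on any day. Its brightest probe (A_01_P1677831, chr12:54763330-54763389, minus strand) ran from 9.93 over 10.48 to 10.73 before irradiation, and read 9.99, 10.91, 9.88 and 10.79 in animals 1, 2, 4 and 7 at day 3. The changes were -0.04 (interval from -0.57 to 0.48), 0.31 (-0.01 to 0.62) and 0.39 (0.03 to 0.74) at the 3 days. A_01_P1790611 had the smallest adjusted p of the STAT4 probes, at day 7 (0.70 ± 0.20, adjusted p = 0.016). There all 7 arrays lay above the 7 pre-irradiation ones, but barely, with a lowest level of 8.312 against a highest of 8.311. A_01_P1695181 had changes of -0.56, -0.14 and 0.52, with adjusted p = 0.23, 0.75 and 0.21. On A_01_P1790611 and A_01_P1695181 the pre-irradiation array of animal 5 stood low, at 7.25 and 5.19, next to 7.99 and 6.54. That raises the changes of these probes.

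STAT2, the partner of IRF9 in the type I interferon response, depended on the probe. The brightest, A_01_P1703781 with the recurring sequence, ran from 8.41 over 9 to 10.03 before irradiation and from 7.09 over 8.29 to 10.98 at day 7. Its changes were 1.16 ± 0.36 at day 3 (adjusted p = 0.025), 0.67 at day 5 and -0.74 at day 7. Animal 2 read highest on both later days, 11.28 at day 5 and 10.98 at day 7, which raised both means. A_01_P1758636 followed the brightest probe with 0.63, 0.15 and -0.53. The probe that shares no run, A_01_P002053, was higher on all 3 days, by 1.52, 2.19 ± 0.53 and 1.37, with adjusted p = 0.10, 0.0056 and 0.089. With the animal as a block its changes were called at days 5 and 7 (1.90 and 1.37, adjusted p = 0.0020 and 0.0038) and not at day 3 (adjusted p = 0.11). At days 3 and 5 that fit cannot separate irradiation from scan session. No value is given for A_01_P002053 within scan session 2, whose pre-irradiation array was not well above background on this probe.

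The other probes that share sequence with the sequence-sharing pair moved as these did. The 56 tested probes that share a run with A_01_P1703781 had median changes of 0.73, 0.32 and -0.73 at the 3 days, and 56, 48 and 2 of them were above 0. Over the 24 arrays their correlation with the STAT2 probe had a median r of 0.96, and 47 of 56 were above 0.9. For A_01_P1758636 the median r over 33 probes was 0.98. These correlations are descriptions over arrays that share days and scan sessions. The part of the shared sequence in the STAT2 values was not tested by other means. The values of A_01_P002053 come from a dim probe, well above background on 4 of 7 pre-irradiation arrays, with a first range from 3.49 to 6.33.

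**Figure D3:**
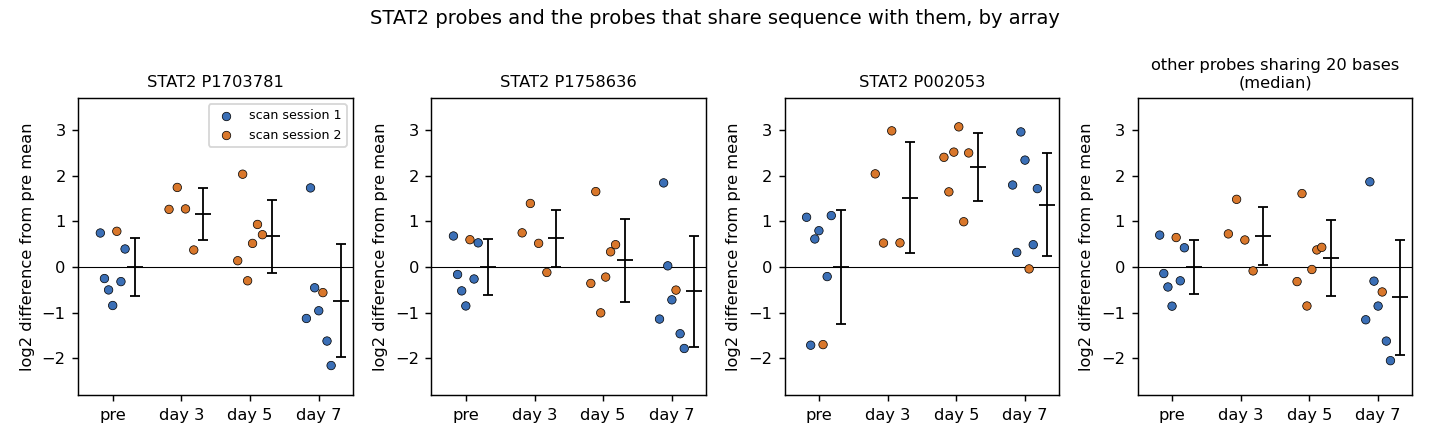
Difference of each array from the pre-irradiation mean (y axis, log2) by day (x axis) for the 3 STAT2 probes and, at the right, the median over the 84 other tested probes that share 20 bases with either sequence-sharing STAT2 probe, with the mean and SD of each group as bars. The first and second panels follow the last one array by array, day 7 of animal 2 included, where the median of the sharing probes was 1.86. The panel of A_01_P002053 does not.

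Between the days themselves no member was called. The shares called of all probes were 0.0184% for day 5 against day 3, 1.28% for day 7 against day 3 and 0.00368% for day 7 against day 5. A missed call does not show that the days were alike. Among brightest probes the smallest adjusted p was that of STAT2 by its sequence-sharing probe, -1.90 ± 0.59 from day 3 to day 7 (adjusted p = 0.047). Other probes with an adjusted p under 0.05 were JAK3 A_01_P1703956 (0.91 ± 0.23, adjusted p = 0.022) and STAT4 A_01_P1695181 (1.08 ± 0.28, adjusted p = 0.023) from day 3 to day 7, and STAT3 A_01_P1695176 (-0.77 ± 0.16, adjusted p = 0.028) from day 5 to day 7. Between the latter days the 95% intervals of all 3 STAT3 probes lay below 0, that of the brightest with the low day 7 array of animal 3 (10.68) included. So did those of STAT5A by its brightest probe (-0.59, from -0.97 to -0.21, adjusted p = 0.083) and by A_01_P1823791 (-0.70, from -1.12 to -0.28, adjusted p = 0.068). The same held for STAT2 by its brightest probe (-1.41, from -2.55 to -0.26, adjusted p = 0.16) and for JAK1 A_01_P011107 (-0.61, from -1.14 to -0.07, adjusted p = 0.19). That of STAT4 A_01_P1695181 lay above 0 (0.66, from 0.163 to 1.155, adjusted p = 0.13). JAK1 differed between day 7 and day 3 by 0.05 in its brightest probe, with an interval from -0.53 to 0.63, and by -0.75 in A_01_P011107, with an interval from -1.40 to -0.10.

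The change at day 7 was also compared between the sexes. No member differed at an adjusted p under 0.05, and 0% of all probes did (limma). The smallest unadjusted p of the 8 genes were those of JAK1 (0.018), with a mean rise of 1.53 in the 4 males and 0.52 in the 3 females, and of JAK3 (0.049), with 0.55 and -0.60. Their adjusted p were 0.49 and 0.57.

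The calls depended on which arrays and blocks entered the fit, while no called change turned its direction. With the animal as a block, 0 genes were called at day 3 (adjusted p = 0.028 to 0.029 for STAT3 and STAT6 and 0.026 for JAK2), 1 at day 5 (STAT6, adjusted p = 0.0031) and 0 at day 7 (JAK1, adjusted p = 0.0082). Over the whole array this block left 751, 4170 and 2325 probes called at days 3, 5 and 7, against 3653, 4543 and 2951 without it. At days 3 and 5 the block cannot separate irradiation from scan session. Within session 2, against its single pre-irradiation array, the changes at day 3 were 1.29 for STAT3, 0.72 for STAT6 and 1.16 for JAK2. At day 5 they were 1.10 for STAT3, 0.69 for STAT5A and 0.74 for STAT6. With 1 array on one side a missed call there says nothing about a member, and only sizes are given. That array is of animal 5, which has no array of day 3 or day 5, so the sizes also hold the difference between animals. JAK1 probe A_01_P011107 was smaller there, 0.58 at day 3 and 0.44 at day 5, and the session's pre-irradiation array read 9.79 on it against 8.73 to 9.59 on the other 6. For day 7, session 1 alone gave 1.22 for JAK1 (adjusted p = 0.0072).

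Leaving out the arrays of 1 animal at a time ended the call of JAK2 at day 3 and of JAK1 at day 7 in 7 of 7 cases. It ended that of STAT6 at day 3 in 6 cases (all but animal 6), of STAT3 at day 3 in 3 (animals 1, 4 and 7), of STAT3 at day 5 in 5 (animals 1 to 5), of STAT5A at day 5 in 4 (animals 1 to 4) and of STAT6 at day 5 in 2 (animals 1 and 3). The highest adjusted p among these was 0.029. For JAK1 A_01_P011107 it ended the call in 5 cases at day 3 (all but animals 5 and 6) and in 2 at day 5 (animals 2 and 7). At day 5 the calls of STAT3 A_01_P1695176 and STAT5A A_01_P1823791 were kept without any 1 animal.

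A further member of the family was measured too. TYK2, the remaining JAK kinase, rose by 1.06 ± 0.16 at day 3 (adjusted p = 0.00072) and 0.85 ± 0.12 at day 5 (adjusted p = 0.00016), and had a change of 0.55 at day 7 (adjusted p = 0.019). Neighbouring steps of the pathway are given from lists of genes by their known role, each gene by its brightest probe. The shares of all genes given above, 5.74%, 6.14% and 2.66% higher and 7.74%, 9.30% and 7.33% lower at days 3, 5 and 7, are the background of every list count that follows.

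Of 22 cytokine receptor genes tested, 2 were called higher and 1 lower at day 3, 3 and 2 at day 5, and 1 and 1 at day 7, with median changes of 0.73, 0.45 and 0.26. CSF3R, the G-CSF receptor, rose by 1.72 ± 0.26 at day 3 and 1.82 ± 0.21 at day 5 (adjusted p = 0.00076 and 3.4e-05). IL12RB1, a chain of the IL12 and IL23 receptors, rose by 1.33 ± 0.21, 1.13 ± 0.23 and 1.24 ± 0.21 at days 3, 5 and 7 (adjusted p = 0.00098, 0.0019 and 0.00055). IL7R, which signals through JAK1 and JAK3, fell by 1.97 at day 3 and 1.25 at day 5 (adjusted p = 1e-04 and 0.00016). CRLF2, the TSLP receptor chain, fell by 1.81 at day 5 and 1.95 at day 7 (adjusted p = 0.00041 and 0.00013).

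Among 17 inhibitors of the pathway, CISH, a SOCS-family gene induced by STAT5, was the 1 gene called on all 3 days. It rose by 1.63 ± 0.20, 1.94 ± 0.20 and 1.39 ± 0.27 (adjusted p = 0.00026, 1.1e-05 and 0.0015). CBL, a ubiquitin ligase, was the other call, at day 5, 2.40-fold higher than a pre-irradiation group below background. Of 11 partners and coactivators of STAT factors, day 3 had 2 called higher, day 5 had 3 and day 7 had 0. The acetyltransferase genes EP300 (0.86 ± 0.15, adjusted p = 0.00084) and CREBBP (1.16 ± 0.24, adjusted p = 0.0023) and the endosomal adaptor gene STAM2 (1.06 ± 0.17, adjusted p = 0.00032) were those of day 5.

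Of 9 classical STAT3 targets, 1 was called higher and 1 lower at day 3 and 2 higher and 1 lower at day 5, none at day 7. The changes of 8 of the 9 were above 0 on each day, with medians of 0.86, 0.87 and 0.67. FGL2, a fibrinogen-like protein of monocytes and T cells, rose by 1.38 ± 0.27 and 1.13 ± 0.22 at days 3 and 5 (adjusted p = 0.0029 and 0.0017) and the repressor gene BCL6 by 1.25 ± 0.25 at day 5 (adjusted p = 0.0017), while MYC fell by 2.56 and 1.96 (adjusted p = 0.00061 and 0.0022). Of 6 classical STAT5 targets, the survival gene BCL2L1 fell on all 3 days, by 2.95, 3.76 and 2.98 (adjusted p = 0.00035, 2.7e-06 and 0.00013). Among the other STAT5 targets, CCND2 rose at days 5 and 7 (0.98 ± 0.17 and 1.11 ± 0.19, adjusted p = 0.00082 and 0.00073), PIM2 at day 5 (1.06 ± 0.17, adjusted p = 0.00034) and CCND3 at day 3 (1.17 ± 0.22, adjusted p = 0.0020).

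**Figure D4:**
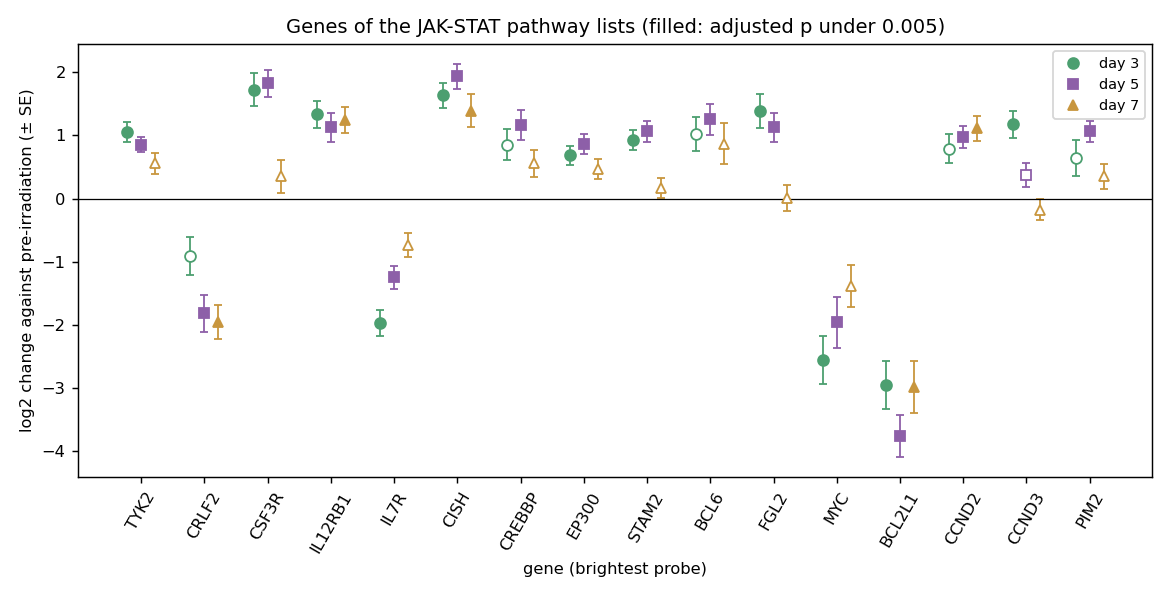
Change against the pre-irradiation arrays (y axis, log2, with the SE) of the called genes named from the pathway lists that had measured levels in both groups (x axis, brightest probe), by day, with filled points for adjusted p under 0.005. CISH is filled on all 3 days above 0 and BCL2L1 on all 3 days below 0, at -2.95, -3.76 and -2.98.

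Of 6 STAT4 targets, IL18R1 was called at day 7, 3.21-fold higher than a pre-irradiation group below background. Of 4 STAT6 targets tested, MRC1, the macrophage mannose receptor gene, was called on all 3 days, 3.41-, 3.96- and 5.56-fold higher than a group below background. The medians of the 4 were -0.61, -0.91 and -1.18, with 2, 1 and 1 of them above 0. MRC1, IL18R1 and CBL were well above background on 0 of 7 pre-irradiation arrays, so they entered the tests only through arrays after irradiation, and their calls are not used as support. Their folds were measured as for JAK3 A_01_P1673391 and are no lower bounds. Of 18 targets of the STAT2 and IRF9 complex, 0 were called on any day by their brightest probe (limma), and by any of their probes 1, 2 and 1 were. Their median changes were 1.36, 1.65 and 0.46, and at days 3 and 5 all 18 changes were above 0. IRF9 itself had changes of 0.80, 0.90 and 0.12, with adjusted p = 0.053, 0.0077 and 0.71.

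Marker genes of several blood cell types changed with the days. The mean level of 10 B cell markers fell from between 10.64 and 10.87 before irradiation to between 6.42 and 7.92 on the later arrays, with all 10 called lower on each day. The 12 markers of red cell precursors had median changes of -3.29, -5.23 and -4.44, with 10, 12 and 10 called lower. All 9 platelet markers were called higher at day 3 (median 2.95), 2 at day 5 and 0 at day 7. These markers moved on the same days as the members, and their part in the member changes was not tested.

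Fewer of the myeloid markers were called than of the B cell and red cell precursor markers. The mean level of 10 monocyte markers lay between 11.81 and 12.52 before irradiation and between 12.62 and 13.73 at day 3, with 2 of 10 called higher on each day and median changes of 0.97, 0.84 and 0.90. That of 10 neutrophil markers lay between 11.67 and 12.93 and, at day 3, between 12.30 and 13.28, with median changes of 0.94, 0.61 and 0.23. Of the neutrophil markers 2 were called higher at day 3, 3 higher and 1 lower at day 5, and 0 higher and 1 lower at day 7, and CSF3R, called at days 3 and 5, is also a cytokine receptor of the list above. The median changes of the 8 member genes were 0.94, 0.75 and 0.29. None of the 10 T cell markers or 12 NK cell markers was called on any day by its brightest probe, with median T cell changes of -0.50, -0.33 and 0.04. Whether the myeloid markers have a part in the rises of STAT3, STAT6 and JAK2 was not tested.

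Over the 24 arrays the highest correlation between brightest probes was that of STAT5A with JAK2 (r = 0.84, and 0.68 after the group means were taken away). STAT5A and STAT4 ran against each other after the group means were removed (r = -0.68). By the same measure the most alike of 10325 other genes were TRAFD1 (r = 0.94) and CD274 (r = 0.92) for STAT5A, RENBP (0.92) and NLRP1 (0.91) for STAT6, SCYL3 (0.90) and ARHGAP12 (0.90) for STAT3, FNDC3A (0.92) and AKAP13 (0.91) for JAK1, STN1 (0.88) and APOL2 (0.87) for JAK2, SYTL2 (0.86) and RNPS1 (0.77) for STAT4, and ZNF552 (0.76) and SLC5A3 (0.75) for JAK3. For STAT2 they were LRTOMT, ZNF772 and ADGRD1, with r = 0.99 for each. The LRTOMT probe shared a run of 20 bases with a STAT2 probe, and those of ZNF772 and ADGRD1 shared such runs with 52 and 133 other probes. These are descriptions over 24 arrays of common days and sessions.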

How the data were processed

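Scanner output of 24 arrays was used. The authors deposited the processed signal, a linear intensity, as given by Agilent Feature Extraction (version 10.7 per the labels, 12.0.2.2 per the file headers), with a background surface subtracted, gradients corrected and low values replaced by surrogates. The study's methods name a human array and the deposited output a rhesus one. The authors' deposited series matrix holds log2 values of the same arrays, shifted by 1 constant per array, with some cells empty (18497 rows used, 17 of the 20 member probes), and served as an alternative.

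Here log2 of the processed intensity was taken, non-uniform and population outlier spots were left out, and a constant per array, its median distance from the median array, was removed (shifts from -2.03 to 0.87). Tests covered the probes that were well above background on 4 or more of the 24 arrays and used limma 3.58.1 in R 4.3.3, each pair of groups in its own fit, two-sided, at an adjusted p under 0.005 (0.05 for the sexes, in an interaction term at day 7). Sequence runs were searched in Python 3.11.15. The fit was tested on simulated data. Each member is named by its brightest probe, with other probes where they differ, and from each of 9 pathway lists and 7 marker lists at most the 3 called genes with the largest change per day were eligible to be named. The members and lists were chosen with earlier results of these data known. IRF9 was named after its values were seen. Some genes and sequences are not reported here.

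Replicate numbers are animals: after group means were removed, arrays of the same number correlated between pre-irradiation and each later day with r from 0.13 to 0.46, in every pair, and the median r for different numbers was below 0. P-values measure the spread between these animals. Promoter and protein sequences were not analysed here, and no genome was used.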

Additional observations from a re-analysis of the deposited data

Results flagged for a closer look

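In 80 groups of values (20 probes by 4 groups), 8 held an array whose gap to its nearest neighbour was large for the range of its group, where chance gives about 1 in 20, or 4 of 80. STAT3 A_01_P1774671 read 10.68 on day 7 of animal 3, the lowest, next to 12.59, and STAT3 A_01_P1695176 read 9.08 on day 7 of animal 2, the highest, next to 8.61. STAT4 stood low on the pre-irradiation array of animal 5, the only one of its group in scan session 2, in A_01_P1790611 (7.25, next to 7.99) and A_01_P1695181 (5.19, next to 6.54). STAT5A stood low on the pre-irradiation array of animal 2 in A_01_P000763 (11.07, next to 11.49) and A_01_P1695186 (7.26, next to 7.89). JAK1 A_01_P1695156 read 7.57 on the pre-irradiation array of animal 1, the highest, next to 5.88, and JAK3 A_01_P1695161 read 5.62 on day 5 of animal 6, the lowest, next to 6.28. The causes were not tested.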

How the results depend on the processing

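None of the called changes of the members turned its direction in any alternative run. The number of the 8 genes called at day 3 was 3, and became 1 in one fit of all arrays, 0 with the replicate block, 0 with the slide or the scan session as a block, 0 within scan session 2, and 6 at an adjusted p under 0.05 or by any probe of a gene. At day 5 it was 3, and became 5 without a filter on dim probes, 1 with the replicate block, 0 with the scan session as a block and 0 within scan session 2, and 5 at an adjusted p under 0.05 or by any probe. At day 7 it was 1, and became 3 with quantile normalization, 3 with the normexp background, 2 without the filter, 0 with the replicate, slide or scan session block, 0 within scan session 1, 3 at an adjusted p under 0.05 and 2 by any probe. The counts by any probe include JAK3 through A_01_P1673391 alone, which passed the filter on dim probes only through days 5 and 7, and at day 7 it is the whole gain. Between day 7 and day 3 the count of 0 became 1 at an adjusted p under 0.05. Leaving out 1 animal gave between 0 and 2 genes (day 3), between 0 and 4 (day 5) and 0 in each case (day 7). Without 1 animal the calls over all probes ranged from 863 to 3490 at day 3, from 2713 to 4293 at day 5 and from 1656 to 2576 at day 7, against 3653, 4543 and 2951 with all arrays. Over all probes, day 3 had 0 calls with the slide block, 37 with the scan session block, 0 within scan session 2 and 9696 at an adjusted p under 0.05, and day 5 had 383 and 177 with the session block and within session 2. In other fits the whole array did not move as the members did: one fit of all arrays had 4272 calls at day 3, the fit without the filter 4290 at day 5, and day 7 had 2526 with quantile normalization, 2427 with normexp and 2916 with the session block.

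Taking STAT2 by its probe that shares no run of bases, an alternative chosen after seeing the data, left the counts at 3, 3 and 1. The replicate block left the sex comparison at 0. With the slide as a block no fit was possible for day 5 against pre-irradiation, which share no slide, and both days 3 and 5 lie in 1 session. The causes of these moves were not tested. Limits of depth are those of signal over background: JAK3 A_01_P1673391 and A_01_P1703956, JAK1 A_01_P1695156, STAT2 A_01_P002053 and STAT4 A_01_P1695181 were below it on some or all pre-irradiation arrays.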
